A study of Mus musculus with 17 samples.

Results

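Monocytic and granulocytic cells from the spleens of mice with 6-week tumours were compared across the genome, with 3 arrays of the first kind and 2 of the second. These 5 arrays were taken by their labels out of 17 Affymetrix Mouse Gene 1.0 ST arrays. The samples belong to a study of myeloid-derived suppressor cells (MDSCs) and of what raises their suppressive activity during tumour growth. Female BALB/c mice received 100000 Her-2/CT26 cells, a mouse colon carcinoma line that carries Her-2, under the skin, and spleens were pooled. CD11b+ cells were enriched on magnetic beads and then sorted by antibody. The gate for monocytic cells (Mo) was Ly-6C(high) Ly-6G(low), and that for granulocytic cells (PMN) was Ly-6C(low) Ly-6G(high). Mice of both 6-week groups carried the tumour, so the comparison is one of cell type within tumour-bearing animals. Naive mice, with no injection, gave 3 Mo and 4 PMN arrays, and the 3-week stage gave 3 and 2. The labels give no age of the mice and do not say whether the replicates came from separate pools, so the p-values measure the spread between arrays, which may be technical.

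MDSCs are immature myeloid cells that accumulate in cancer and restrain T cells. The monocytic kind resembles inflammatory monocytes, which leave the marrow through the chemokine receptor CCR2 and can become macrophages. The granulocytic kind resembles neutrophils, which are drawn by ligands of CXCR2 and build their granules in a fixed order during maturation, azurophil granules first, then specific and then gelatinase granules.

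The deposited medians were 95.3 to 104 on the Mo arrays and 81.0 to 82.4 on the PMN arrays, and the upper quartiles were 278 to 298 and 197 to 202. Because the subsets were thus on unlike scales, the values were put on the log2 scale and quantile normalized over all 17 arrays. That step evens out the distributions of the arrays and not effects on single genes. Whether the deposited values of the subsets were processed apart is not known here. Effects of such processing on a gene could not be told apart from cell type. Levels below are log2 intensities on that scale and differences are Mo minus PMN. Standard errors (SE) and p-values use a spread shared over all 6 groups of arrays, not that of the 5 compared arrays alone. For genes on which the 6-week Mo arrays lay far apart, the shared spread is smaller than theirs. Since a normalization over unlike cell types can shift every small difference, a difference was called large at an adjusted p below 0.05 in limma and a size of at least 4-fold, which is 2 on the log2 scale. Correlations over the 19938 genes ran from 0.984 to 0.991 between Mo arrays and were 0.994 between the PMN arrays. Across the subsets they ran from 0.882 to 0.902. Olfactory and vomeronasal receptors serve smell and give a set of mostly silent genes. Of 1194 measured, 0 differed by a large amount. Their median level was 5.17 in Mo and 5.15 in PMN and their 95th percentiles were 6.49 and 6.82, which shows where the dim end of the scale lies.

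The defining markers followed the labels, apart from the small difference of Csf1r. Ccr2, the monocyte chemokine receptor gene, lay at 11.80, 11.62 and 11.64 in Mo and at 6.51 and 7.06 in PMN. Ly6g, which encodes the antigen of the sort and so is no finding, lay at 6.48, 8.55 and 6.48 in Mo and at 13.07 and 13.03 in PMN. Cxcr2, the neutrophil chemokine receptor gene, lay at 5.64, 7.15 and 6.17 in Mo and at 12.65 and 12.73 in PMN. For these 3 genes the groups were far apart. Csf1r, the receptor gene for the monocyte growth factor CSF1, lay at 11.09, 10.83 and 10.77 in Mo and at 9.94 and 9.997 in PMN. Every Mo array was above both PMN arrays, yet its difference of 0.93 ± 0.18 (SE) was not large.

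One Mo array stood apart in the mature neutrophil markers, though not over all genes. Its correlations with the other Mo arrays were 0.988 and 0.991, against 0.984 between replicates 1 and 3. Replicate 2 had the highest level of the 3 Mo arrays in 19 of 20 measured mature neutrophil markers, against 33.9% of all genes. The summed intensity of those 20 markers was 15723 in replicate 2, 9265 in replicate 1 and 10229 in replicate 3. In PMN it was 87537 and 92615. The other Mo arrays had leanings of their own. Replicate 1 was highest in 23 of 25 interferon-stimulated genes, against 30.2% of all genes. Replicate 3 was highest in 29 of 29 mitosis genes and 27 of 28 DNA replication genes, against 35.9% of all genes. What set these arrays apart was not tested. Among the named genes with a large difference, values without replicate 2 are given where it moved the fold by over 1.5 times.

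**Figure D1:**
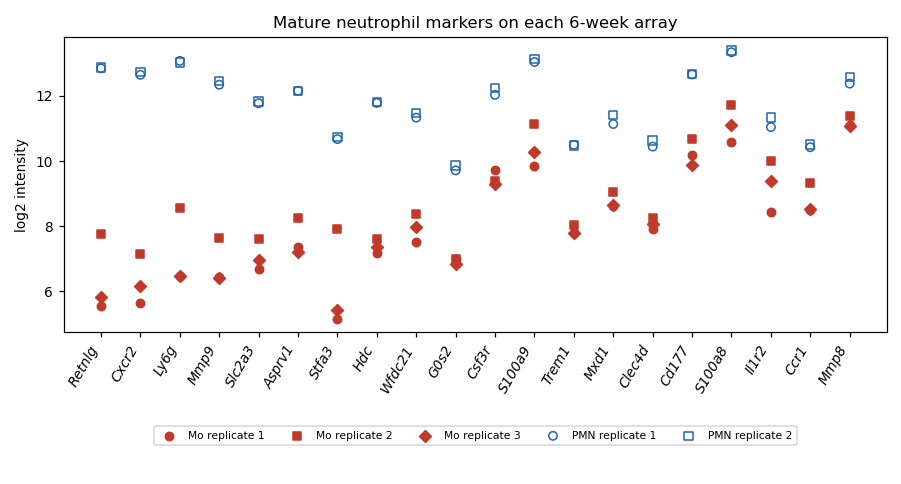
Log2 intensity (vertical axis) of each of the 20 measured mature neutrophil markers, ordered by their difference, on the 3 Mo arrays (filled) and the 2 PMN arrays (open). The PMN arrays lie above the Mo arrays for each marker, and the square of Mo replicate 2 is the highest Mo point in 19 of 20.

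Large differences were found for 372 of 19938 genes (1.87%), of which 172 (0.863%) were higher in Mo and 200 (1.00%) were higher in PMN. At 8-fold or more there were 40 and 63, and at 16-fold or more 13 and 28. The arrays of the groups did not overlap for any of the 372. Separation without regard to size was common, since it held for 36.3% of all genes with Mo higher and 32.2% with PMN higher. An adjusted p below 0.05 at any size was likewise reached by 9702 genes (48.7%). Just inside the limit lay Ifit1bl2 at -2.01 and just outside it Mppe1 and C1qc, which missed 4-fold by less than the rounding. The split between the directions depended on the scaling: without the joint normalization 502 were higher in Mo and 122 in PMN, and with each array centred on its median the counts were 311 and 181. Scaling to the 75th percentile tilted it the other way, with 188 higher in Mo and 265 in PMN. Without Mo replicate 2 there were 381, of which 167 were higher in Mo, with 12 of the 372 lost and 21 gained. In 65 of the 372 the dimmer group had a mean below an intensity of 64, or 6 on the log2 scale, so the fold of those genes leans on values close to background. For such genes among the leading ones the value with all intensities raised to 64 is given where it differs by more than 0.2. In sorted cells measured in bulk, fewer cells of a type and less RNA per cell cannot be told apart.

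**Figure D2:**
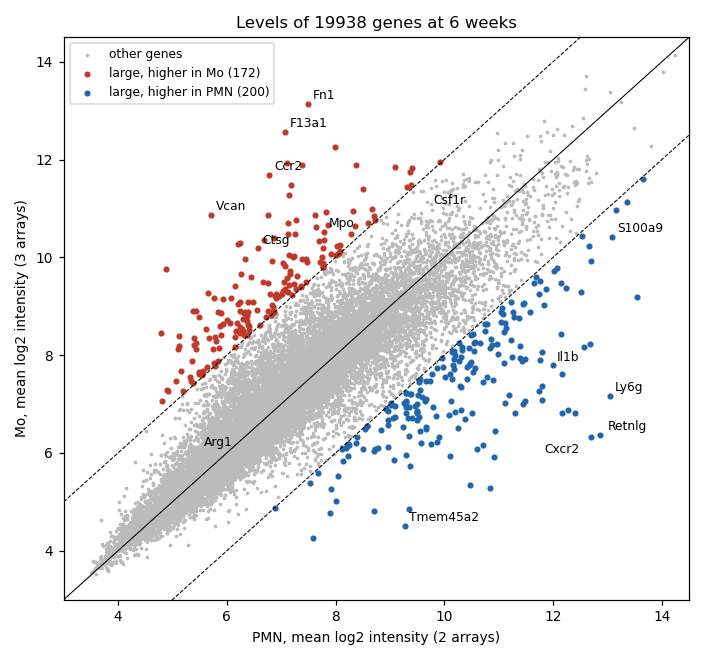
Mean log2 intensity of 19938 genes in the 2 PMN arrays (horizontal) and the 3 Mo arrays (vertical) at 6 weeks, with the line of equality and dashed lines at 4-fold. The 172 genes with a large difference toward Mo lie above the upper dashed line and the 200 toward PMN below the lower one.

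The largest differences toward Mo were those of Fn1, F13a1 and Vcan. Fn1, which encodes fibronectin, lay at 13.11, 13.35 and 12.95 in Mo and at 7.41 and 7.58 in PMN. Its difference was 5.64 ± 0.13 (SE), or 49.8-fold, with an adjusted p of 3.91e-15 in limma. Every Mo array stood far above both PMN arrays. F13a1, the gene of the clotting factor XIII subunit that crosslinks fibrin, lay at 12.61, 12.51 and 12.57 in Mo and at 7.21 and 6.95 in PMN. The difference was 5.48 ± 0.11 (SE), or 44.7-fold (adjusted p = 1.53e-15). Its Mo arrays were tightly grouped. Vcan, the gene of the large matrix proteoglycan versican, lay at 10.85, 10.89 and 10.88 in Mo and at 5.46 and 5.98 in PMN. That is 5.16 ± 0.23 (SE), or 35.7-fold (adjusted p = 1.33e-11), and 29.3-fold with values raised to 64. In PMN it sat at the dim end of the scale.

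Ccr2 itself differed by 4.90 ± 0.14 (SE), or 29.8-fold (adjusted p = 1.11e-13). Msr1, a scavenger receptor gene for modified lipoproteins, lay at 9.85, 9.82 and 9.63 in Mo and at 4.78 and 5.00 in PMN. Its fold was 29.4, and 13.6 with values raised to 64. In PMN the gene was dim on both arrays. S100a10, whose product pairs with annexin A2, differed by 4.83 and Lgals1, the galectin-1 gene, by 4.29. A group of 5 genes of the MS4A membrane protein family stood among the 15 largest differences toward Mo. They were Ms4a6c (4.50), Ms4a4a (4.27), Ms4a4c (4.12), Ms4a6d (4.10) and Ms4a8a (4.04). Ms4a4a lay at 12.54, 12.20 and 12.04 in Mo and at 7.98 and 8.001 in PMN. The family did not move as a block, since Ms4a3, which is known from granulocyte-monocyte progenitors, differed by 1.38, and the B cell gene Ms4a1 by -1.39. The others of the 15 were Cd93 (4.07), Cd302 (3.68) and Il6st (3.67). Il6st encodes gp130, the signalling chain shared by interleukin-6 family receptors, and lay at 10.19, 10.34 and 10.54 in Mo and at 6.58 and 6.80 in PMN. The Cd302 difference was 2.46 with values raised to 64.

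The largest differences toward PMN were those of Retnlg, Cxcr2, Ly6g and Mmp9. Retnlg, a resistin-like secreted protein gene, lay at 5.53, 7.77 and 5.82 in Mo and at 12.85 and 12.87 in PMN. Its difference was -6.48 ± 0.47 (SE), or 89.5-fold (adjusted p = 4.8e-09), and 77.0-fold with values raised to 64. Without Mo replicate 2, which was the brightest Mo array here, the difference was -7.18. The SD was 1.22 over the 3 Mo arrays and 0.02 over the 2 PMN arrays, so the shared spread understates that of Mo. Cxcr2 differed by -6.37 ± 0.25 (SE), or 82.7-fold (adjusted p = 3.58e-12). Ly6g differed by -5.88, or 59.0-fold, and by -6.57 without Mo replicate 2. Mmp9, the gelatinase gene of the last granules to form, lay at 6.43, 7.63 and 6.42 in Mo and at 12.34 and 12.47 in PMN. The difference was -5.58 ± 0.25 (SE), or 47.7-fold (adjusted p = 1.45e-11). Again replicate 2 was the highest of the Mo arrays and remained far below both PMN arrays.

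Stfa2 and Stfa3, stefin genes whose products inhibit cysteine proteases, differed by -5.56 and -4.54, or by -4.67 and -4.07 with values raised to 64. Without Mo replicate 2 the Stfa2 difference was -6.19. Stfa3 lay at 5.15, 7.92 and 5.44 in Mo and at 10.67 and 10.74 in PMN, so that replicate 2 lay far above the other Mo arrays, and the difference without it was -5.41. Olfm4, a specific granule glycoprotein gene, differed by -5.40, or by -6.04 without Mo replicate 2, and the chitinase-like gene Chil1 by -5.34. Slco4c1, an organic anion transporter gene, followed at -5.12 (-4.45 with values raised to 64), and Steap4, a metalloreductase gene, at -5.00. Tmem45a2, which encodes a membrane protein, lay at 4.54, 4.60 and 4.39 in Mo and at 9.18 and 9.37 in PMN. Its difference of -4.76 was -3.27 with values raised to 64, because all 3 Mo arrays were below that level. Slc2a3, the glucose transporter GLUT3 gene, differed by -4.71 and the protease gene Asprv1 by -4.55. Ceacam10, of the carcinoembryonic antigen family, differed by -4.51 and the lectin receptor gene Klra17 by -4.49. The last of these was -3.35 with values raised to 64.

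**Figure D3:**
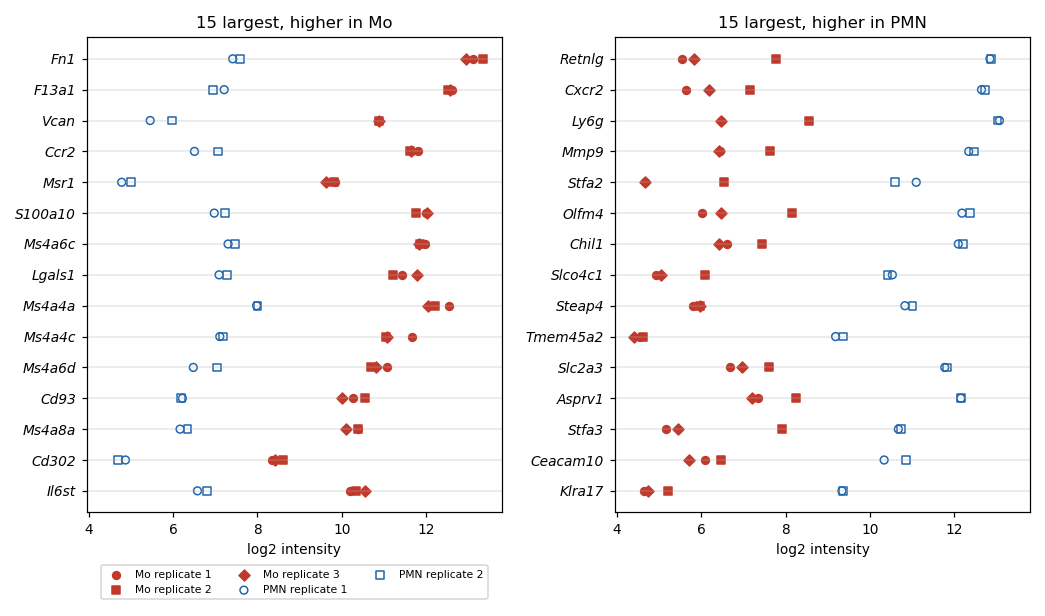
Log2 intensity (horizontal axis) on each 6-week array for the 15 largest differences toward Mo (left panel) and toward PMN (right panel), with filled red symbols for Mo and open blue symbols for PMN. No gene has overlapping groups, and the square of Mo replicate 2 is set off to the right of the other Mo arrays for Retnlg, Ly6g, Stfa2, Olfm4 and Stfa3.

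The 250 bases before the transcription start are shown for the leading genes that have a single start in the RefSeq table (GRCm38.p6), 2 in each direction, because these genes head the comparison. They were searched on both strands for a PU.1-type motif (GAGGAA), a C/EBP-type motif (TTNNGNAA) and an ETS-IRF-type motif (GGAA, any 2 bases, then GAAA), named for factors of myeloid development. Capitals mark the matches, and letters are given from 5′ to 3′ along the strand of the gene.
Vcan, chr13:89742513-89742762, minus strand: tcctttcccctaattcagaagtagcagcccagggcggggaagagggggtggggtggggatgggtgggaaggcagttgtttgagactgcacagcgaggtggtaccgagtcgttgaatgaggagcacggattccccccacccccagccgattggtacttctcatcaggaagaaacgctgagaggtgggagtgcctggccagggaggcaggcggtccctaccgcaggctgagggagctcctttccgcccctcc
Ccr2, chr9:124101933-124102182, plus strand: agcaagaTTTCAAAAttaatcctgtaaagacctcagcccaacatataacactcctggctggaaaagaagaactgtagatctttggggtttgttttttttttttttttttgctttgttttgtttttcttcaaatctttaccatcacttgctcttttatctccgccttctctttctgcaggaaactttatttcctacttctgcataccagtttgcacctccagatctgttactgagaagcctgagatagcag
Retnlg, chr16:48872358-48872607, plus strand: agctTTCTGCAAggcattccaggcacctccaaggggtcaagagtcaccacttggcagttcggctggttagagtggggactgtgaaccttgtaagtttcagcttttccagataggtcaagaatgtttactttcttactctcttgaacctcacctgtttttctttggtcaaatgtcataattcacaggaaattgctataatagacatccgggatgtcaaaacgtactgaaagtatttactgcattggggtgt
Cxcr2, chr1:74153744-74153993, plus strand: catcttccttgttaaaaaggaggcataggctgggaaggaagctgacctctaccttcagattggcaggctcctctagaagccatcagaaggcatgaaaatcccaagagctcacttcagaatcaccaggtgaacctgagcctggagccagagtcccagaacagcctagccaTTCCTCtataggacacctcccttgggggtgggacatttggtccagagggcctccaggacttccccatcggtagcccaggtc

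The Ccr2 and Retnlg stretches each held 1 C/EBP-type match and the Cxcr2 stretch 1 PU.1-type match, so no matches overlapped. The Vcan stretch held 0 matches to these letters. Of the genes with a large difference, 137 of the 172 toward Mo and 164 of the 200 toward PMN had an entry in the table, as did 15562 measured genes. The PU.1-type letters stood in 36.6% of the stretches of genes higher in PMN, 21.2% of those higher in Mo and 22.5% of all measured genes. The C/EBP-type letters stood in 42.7%, 35.8% and 33.2%, and the ETS-IRF-type letters in 3.05%, 3.65% and 2.24%. The median GC content was 55.2%, 57.6% and 56.4%. These shares describe letters in a window and do not show binding.

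Identity markers were next described as lists, each set against the median difference of all genes, 0.03. The counts in this and every later list stand beside 0.863% of all genes large toward Mo and 1.00% toward PMN. Of 23 measured monocyte and macrophage markers, 13 were higher in Mo by a large amount and 1 was higher in PMN, with a median of 2.17. Besides Fn1, F13a1, Ccr2, Ms4a6c and Cd93, the 13 were Pld4 (3.24), Klf4 (2.73), Ctss (2.42), Irf8 (2.42), Mpeg1 (2.37), Ly86 (2.28), Fcgr1 (2.17) and Cd68 (2.13). Pld4 is an endolysosomal nuclease gene, Mpeg1 encodes a pore-forming protein of macrophages and Fcgr1 the high-affinity receptor for immunoglobulin G. Fcgr1 fell under the size limit without Mo replicate 1, at 1.93. The exception was Mrc1, the mannose receptor gene of resident macrophages, at 6.37, 6.25 and 5.98 in Mo and at 8.44 and 8.30 in PMN. Its difference was -2.17 ± 0.36 (SE; adjusted p = 8.19e-05). The fractalkine receptor gene Cx3cr1 (1.39), Adgre1, which encodes F4/80 (1.72), and Zeb2 (1.76) were not large. Of 20 measured mature neutrophil markers, 17 were higher in PMN by a large amount and 0 in Mo, with a median of -2.76. The other 3, Il1r2 (-1.92), Ccr1 (-1.69) and Mmp8 (-1.28), fell short of 4-fold. Without Mo replicate 2 the count was 18, and without the joint normalization it was 12.

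Granule proteins leaned different ways by granule type, though the azurophil list was mixed. Of 12 azurophil granule genes, 5 were higher in Mo by a large amount and 1 in PMN, with a median of 1.36. The shares of all genes were 0.863% and 1.00%. Another 6 of the 12 were not large. Without regard to size, all Mo arrays lay above PMN in 7 and below in 4, against 36.3% and 32.2% of all genes. Ctsg, the cathepsin G gene, lay at 9.38, 10.29 and 10.89 in Mo and at 6.52 and 6.62 in PMN. The difference was 3.61 ± 0.28 (SE), or 12.2-fold (adjusted p = 1.01e-08). The 3 Mo arrays were spread over more than 1 log2 unit and all stood above both PMN arrays. Elane, the neutrophil elastase gene, lay at 9.90, 10.61 and 10.95 in Mo and at 7.25 and 7.26 in PMN. Prtn3, the proteinase 3 gene, differed by 3.36 and Ctsc, whose product activates these proteases, by 3.52. Mpo, the myeloperoxidase gene, lay at 9.80, 10.61 and 11.17 in Mo and at 8.01 and 7.57 in PMN, a difference of 2.74 ± 0.29 (SE). Mo replicate 3, the array highest in mitosis genes, was also the highest Mo array in 10 of the 12 azurophil genes. Whether dividing or less mature cells have a part in these levels was not tested. Cd63, a granule membrane tetraspanin gene, went the other way at -2.64.

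Specific and gelatinase granule genes ran toward PMN. Of 22, 12 were higher in PMN by a large amount (beside 1.00% of all genes) and 0 in Mo, with a median of -2.12. Without the joint normalization 8 were large toward PMN and 0 toward Mo, with a median of -1.46. Camp, the cathelicidin gene, lay at 7.69, 9.495 and 7.53 in Mo and at 12.66 and 12.71 in PMN. Ltf, the lactoferrin gene, lay at 8.71, 10.58 and 8.27 in Mo and at 13.39 and 13.69 in PMN. In both genes Mo replicate 2 lay well above the other Mo arrays. Their differences were -4.45 and -4.35, and -5.08 and -5.05 without that array. Mmp25, a membrane-bound metalloproteinase gene, differed by -4.46 and Adam8 by -3.25. Smaller differences were those of Pglyrp1 (-2.77), Cd177 (-2.43), Ltb4r1 (-2.40), Ngp (-2.19) and Lcn2 (-2.05). Lcn2, the lipocalin-2 gene, was bright in both subsets, at 11.15, 12.08 and 11.58 in Mo and 13.58 and 13.72 in PMN. Ngp, the neutrophilic granule protein gene, lay at 10.66, 12.18 and 10.08 in Mo and at 13.25 and 13.07 in PMN. When tested against a difference of 1 rather than 0, Ngp did not pass (adjusted p = 0.212 by limma's treat), and its difference was -2.79 without Mo replicate 2. The alarmin genes S100a8 and S100a9 differed by -2.23 and -2.67. S100a9 lay at 9.86, 11.14 and 10.27 in Mo and at 13.04 and 13.14 in PMN. S100a8, Lcn2 and Ngp were no longer large under median centring. Without the joint normalization these genes, Cd177 (-1.79) and Ltb4r1 were not large.

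With the joint normalization, the large differences among protease inhibitor genes were all toward PMN. Without it, 1 was large toward Mo and 4 toward PMN. Of 15 measured stefins, serpins and related genes, 5 were higher in PMN by a large amount (beside 1.00% of all genes) and 0 in Mo. Beside both stefins they were Wfdc21 (-3.45), Timp2 (-2.69) and Serpinb1a (-2.18), the last of which encodes an inhibitor of neutrophil elastase. Serpinb1a was not large under any of the 3 other scalings. Cathepsins and lysosomal genes leaned the other way, with 4 of 21 higher in Mo by a large amount, 1 in PMN and a median of 1.16. Of all genes, 0.863% were large toward Mo. The 4 were Ctsc, Ctss, Cd68 and Gla, the α-galactosidase A gene, at 2.02.

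**Figure D4:**
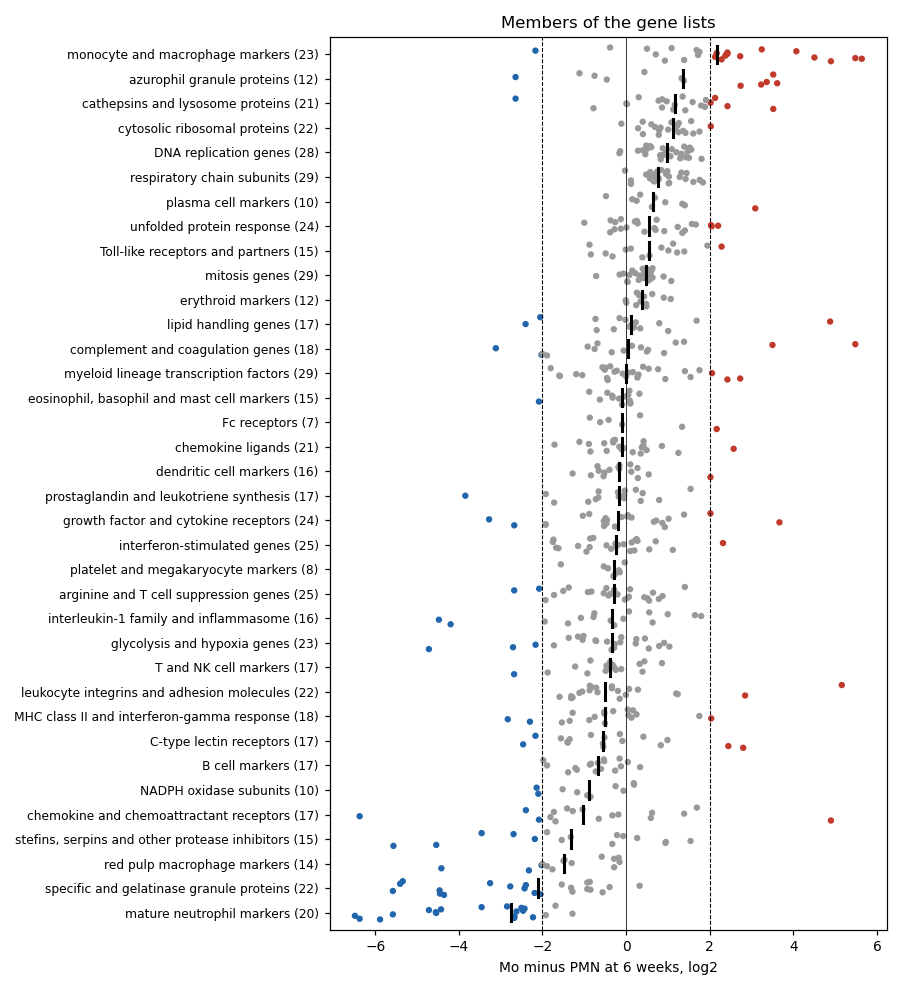
Mo minus PMN difference at 6 weeks (log2, horizontal axis) of every measured member of the gene lists, ordered by list median (black bar), with the number of members in brackets and dashed lines at 4-fold. Red points are large toward Mo and blue points large toward PMN. Mature neutrophil markers (median -2.76) and monocyte markers (median 2.17) mark the ends.

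Chemoattractant and growth factor receptors differed in both directions. Among 17 chemoattractant receptors, Ccr2 was the only large difference toward Mo, and Cxcr2, Ltb4r1 and Ccr3 were large toward PMN. This balance depended on the scaling. Without the joint normalization 3 were large toward Mo and 1 toward PMN, and Ltb4r1 and Ccr3 were not large. Ltb4r1, the leukotriene B4 receptor gene, lay at 7.80, 8.10 and 7.74 in Mo and at 10.13 and 10.42 in PMN. C5ar1, the receptor gene for complement C5a, differed by -1.73 and Cxcr1 by -1.81, both short of 4-fold. Of 24 growth factor and cytokine receptors, Il6st and Flt3 were large toward Mo and Csf3r and Il18rap toward PMN. Without the joint normalization Csf3r was not large, at -1.93. Csf3r, the receptor gene for granulocyte colony-stimulating factor, lay at 9.72, 9.37 and 9.31 in Mo and at 12.03 and 12.25 in PMN. Both subsets carried it well above the dim end of the scale. Il18rap, an interleukin-18 receptor chain gene, differed by -3.28. Its partner Il18r1, which was on none of the lists, differed by -2.66, or -1.92 with values raised to 64. Flt3, a progenitor and dendritic cell receptor gene, differed by 2.02, and by 1.72 without Mo replicate 2.

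Toll-like, Fc and C-type lectin receptor genes with a large difference were 1 of 15, 1 of 7 and 4 of 17 in their lists, beside 1.87% of all genes. Ly86 was the only one of 15 Toll-like receptors and partners, and Fcgr1 the only one of 7 Fc receptors. Clec4a1 (2.80) and Clec4a3 (2.45), lectin receptor genes of monocytes, were large toward Mo, and Clec4d (-2.46), whose product binds mycobacterial glycolipid, and Mrc1 toward PMN, out of 17 C-type lectin receptors. Among 22 integrins and adhesion molecules, Itgb7 (2.85) and Vcan were large toward Mo and 0 toward PMN. Itgam, the CD11b gene used for enrichment, lay at 11.10, 10.92 and 10.74 in Mo and at 12.25 and 12.22 in PMN, a difference of -1.31 ± 0.12 (SE).

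Of 29 lineage transcription factors, 3 were large, beside 1.87% of all genes, and all 3 were higher in Mo. The median of the 29 was 0.00 (-0.04 with scaling to the 75th percentile and 0.49 without the joint normalization). Klf4, which drives monocyte differentiation, lay at 9.26, 9.70 and 9.49 in Mo and at 6.78 and 6.73 in PMN, a difference of 2.73 ± 0.21 (SE; adjusted p = 1.17e-08). Irf8, which directs progenitors to monocytes and away from neutrophils, lay at 9.65, 9.92 and 10.14 in Mo and at 7.50 and 7.45 in PMN. The third, Nr4a1, needed by patrolling monocytes and induced early on stimulation, differed by 2.06, and by 1.80 without Mo replicate 1. The neutrophil regulators Cebpe (-1.60) and Gfi1 (-1.05) and the shared regulators Cebpa (1.54) and Spi1 (-0.44) were not large. The Spi1 difference was 0.25 without the joint normalization, so its direction is not settled.

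With the joint normalization, the large differences among interleukin-1 family and lipid mediator genes were toward PMN. Il1b, the interleukin-1β gene, lay at 7.998, 7.53 and 7.85 in Mo and at 11.94 and 12.04 in PMN. Its difference was -4.20 ± 0.14 (SE), or 18.3-fold (adjusted p = 4.07e-13). Il1f9, which encodes interleukin-36γ, lay at 6.66, 7.36 and 7.76 in Mo and at 11.67 and 11.81 in PMN, a difference of -4.48 ± 0.21 (SE). These were the only large differences among 16 interleukin-1 family and inflammasome genes. Without the joint normalization 2 were large toward Mo and 2 toward PMN, and with median centring 1 and 2. Alox5, the gene of the 5-lipoxygenase that starts leukotriene synthesis, lay at 7.60, 8.57 and 7.57 in Mo and at 11.74 and 11.76 in PMN. It differed by -3.84 ± 0.21 (SE) and was the only large difference of 17 prostaglandin and leukotriene genes. Without the joint normalization 1 of these was large toward Mo and 1 toward PMN. Lta4h, which makes leukotriene B4, differed by -1.92. Alox5ap, whose product presents the substrate to the lipoxygenase, differed by -0.04 ± 0.10 (SE). Hdc, the gene of the enzyme that makes histamine, lay at 7.18, 7.59 and 7.36 in Mo and at 11.78 and 11.82 in PMN. Among 21 chemokine ligands Ccl9 (2.57) was large toward Mo and 0 toward PMN. Complement and coagulation genes divided, with F13a1 and F10 (3.50), the coagulation factor X gene, toward Mo and Cd55 (-3.11) and C1qb (-2.02) toward PMN. Cd55, which protects cells from complement, differed by -1.89 with values raised to 64.

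Among genes linked to suppression by these cells, Arg1, Nos2, Cybb, Il4ra and Cd274 did not differ by a large amount, while S100a8, S100a9, Entpd1 and Slc7a11 were higher in PMN. Arg1, the arginase 1 gene, lay at 5.94, 6.18 and 6.05 in Mo and at 5.49 and 5.52 in PMN, a difference of 0.55 ± 0.11 (SE). Nos2, the inducible nitric oxide synthase gene, lay at 6.55, 6.63 and 6.58 in Mo and at 6.62 and 6.60 in PMN, a difference of -0.03 ± 0.13 (SE). Neither gene rose above the 95th percentile of the olfactory receptors except for Nos2 in Mo, which lay just above it. Cybb, the catalytic NADPH oxidase subunit gene, was bright in both, at 12.74, 12.68 and 12.49 in Mo and at 13.50 and 13.48 in PMN. Its difference was -0.85 ± 0.19 (SE). Il4ra differed by -0.47 ± 0.09 (SE) and Cd274, the PD-L1 gene, by -0.20 ± 0.14 (SE). In the arginine and T cell suppression list of 25, 0 were large toward Mo and 2 toward PMN (all genes: 0.863% and 1.00%). These were Entpd1 (-2.67), the gene of the ectoenzyme CD39, and Slc7a11 (-2.08), the cystine transporter gene. Without the joint normalization 1 of the list was large toward PMN, and with 75th percentile scaling 4 were. Slc7a11 was not large without the joint normalization, at -1.97. S100a8 was not large there or under median centring. Entpd1 lay at 8.54, 8.18 and 7.91 in Mo and at 10.87 and 10.89 in PMN. Arg2, the second arginase gene, differed by -1.93, just short of 4-fold. Of 10 NADPH oxidase genes, Hvcn1 (-2.14), the proton channel gene, and Ncf1 (-2.10) were large toward PMN, beside 1.00% of all genes. Without the joint normalization neither was.

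Antigen presentation genes pointed both ways. Of 18 class II and interferon-γ response genes, H2-Ea (-2.83) and H2-Aa (-2.30) were large toward PMN and H2-DMa (2.04), whose product loads peptide, toward Mo. H2-Aa, a class II α chain gene, lay at 7.68, 6.36 and 5.96 in Mo and at 8.73 and 9.20 in PMN. The Mo arrays were spread widely, with replicate 1 highest, and all lay below PMN. Without Mo replicate 3 the difference was -1.95. The B cell markers leaned toward PMN, as H2-Ea and H2-Aa did and H2-DMa did not. None of 17 was large and the median was -0.67. It was -0.41 without the joint normalization and -0.93 with 75th percentile scaling, where 2 were large toward PMN. The summed intensity of these markers was 1297 to 1571 in Mo and 2301 to 2405 in PMN. Of those 17 markers, 4 stood above the olfactory 95th percentile in Mo and 10 in PMN. Cd79a, a defining B cell gene, lay at 7.28, 7.01 and 6.90 in Mo and at 7.63 and 7.94 in PMN. The part of B cells in the class II values was not tested. Among 25 interferon-stimulated genes Ifi44l was the only large difference. It lay at 9.97, 8.45 and 7.66 in Mo and at 6.29 and 6.45 in PMN, and its difference of 2.32 was 1.68 without Mo replicate 1.

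No gene of the cell division or respiratory chain lists passed 4-fold. None of 29 mitosis genes and none of 28 DNA replication genes was large, with medians of 0.48 and 0.98. Mki67, a marker of cycling cells, lay at 10.05, 10.80 and 10.98 in Mo and at 10.72 and 10.42 in PMN, so that the groups overlapped. None of 29 respiratory chain subunits was large, with a median of 0.77. Of 22 cytosolic ribosomal protein genes 1 was large, Rplp0 at 2.03, with a median of 1.13. Without the joint normalization, 4 replication genes, 4 respiratory chain genes and 6 ribosomal genes were large toward Mo. In glycolysis 3 of 23 were large toward PMN (beside 1.00% of all genes), namely Slc2a3, Hk3 (-2.70), the hexokinase 3 gene, and Pfkfb4 (-2.16). Of 24 unfolded protein response genes 3 were large toward Mo, and all act in folding in the endoplasmic reticulum, namely Pdia6 (2.20), Pdia4 (2.05) and Calr (2.03). Of 17 lipid handling genes 3 were large, Msr1 toward Mo and Lpcat2 (-2.40) and Olr1 (-2.05), an oxidized lipoprotein receptor gene, toward PMN.

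Markers of other spleen cells were looked at in the same way. Of all genes, 0.863% were large toward Mo and 1.00% toward PMN. Of 14 red pulp macrophage markers, 3 were large toward PMN, and the summed intensity was 2008 to 2668 in Mo and 7249 to 7276 in PMN. Of the 14, 9 stood above the olfactory 95th percentile in Mo and 12 in PMN. Slc40a1, the gene of the iron exporter ferroportin, lay at 6.95, 7.68 and 6.58 in Mo and at 11.48 and 11.49 in PMN, a difference of -4.42 ± 0.26 (SE). Vcam1, an adhesion molecule gene, differed by -2.32, and C1qb by -2.02, or -1.94 without Mo replicate 2. Spic, the regulator that defines red pulp macrophages, lay at 6.05, 5.65 and 5.91 in Mo and at 7.70 and 7.55 in PMN. Cd5l, another of their defining genes, lay at 6.80 and 6.64 in PMN, no higher than the olfactory 95th percentile there. Mrc1 was also higher in PMN, and the part of macrophages in its level was not tested.

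Of 17 T and NK cell markers Cd3d was large toward PMN, at 5.94, 6.22 and 5.95 in Mo and at 8.59 and 8.84 in PMN. The summed intensity of those markers was 1538 to 1764 in Mo and 2442 to 2543 in PMN. Of 10 plasma cell markers Jchain, the joining chain gene, was large toward Mo at 3.09, with sums of 3006 to 3544 in Mo and 1356 to 1472 in PMN. Its PMN arrays were 7.50 and 6.17 and its Mo arrays 10.06, 10.12 and 9.60. Among 16 dendritic cell markers only Flt3 was large, and among 15 eosinophil, basophil and mast cell markers only Ccr3 (-2.08). None of 12 erythroid and none of 8 platelet markers was large. Erythroid sums ran from 1440 to 5514 over the Mo arrays and were 2123 and 2471 in PMN. Mo replicate 2 was the highest Mo array in 12 of the 12 erythroid markers.

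One microRNA gene, Mir142, was among the large differences and was picked out after its value was seen. The hairpin gene is known to be active across blood cell types. Its feature lay at 6.75, 6.64 and 6.83 in Mo and at 9.10 and 9.09 in PMN, a difference of -2.36 ± 0.14 (SE), or 5.12-fold (adjusted p = 4.87e-10). The groups were tight and far apart. The array reads transcripts from this locus and not the mature strands, which are given from RefSeq (GRCm38.p6) with the seed, bases 2 to 8, in capitals because it decides which messages a microRNA can pair with.
mmu-miR-142a-5p, chr11:87756867-87756887, plus strand: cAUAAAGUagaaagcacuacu
mmu-miR-142a-3p, chr11:87756903-87756925, plus strand: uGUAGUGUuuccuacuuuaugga

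The next question was how far the 6-week differences were also seen between the same subsets in naive mice, whose arrays are separate from those compared so far. Of the 172 genes large toward Mo at 6 weeks, 99 also differed by 4-fold or more toward Mo in naive mice. That is 57.6% of the 172 and 43.0% of the 230 such genes in naive mice. Of the 200 large toward PMN, 87 did so in naive mice, 43.5% of the 200 and 66.9% of 130. At 3 weeks 121 of the 172 (70.3%) and 70 of the 200 (35%) reached 4-fold in the same direction, which is 30.02% of the 403 and 65.4% of the 107 such genes at that stage. A single gene of the 372, Samd9l, had the opposite sign in naive mice, at 0.16 against -2.19 at 6 weeks. At 3 weeks 5 had the opposite sign, namely Ano10, Anxa3, Mcu, Olr1 and Syne2, with values of 0.05 to 0.34 there.

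The difference between the stages was tested as an interaction in the same fit, which shares the 6-week arrays with the comparison above. The subset difference at 6 weeks minus that in naive mice was large for 60 genes (0.301%). It was positive, which means shifted toward Mo, for 19 (0.0953%) and negative for 41 (0.206%), and its median over all genes was 0.10. Among genes large at 6 weeks and also large in the interaction, Vcan showed the largest positive value. Its subset difference was 0.89 in naive mice, 3.52 at 3 weeks and 5.16 at 6 weeks. The mean level in Mo was 6.33 in naive mice, 8.85 at 3 weeks and 10.87 at 6 weeks, while that in PMN stayed between 5.33 and 5.72. The interaction was 4.27 ± 0.30 (SE; adjusted p = 1.57e-07).

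Ctsg and Elane, both azurophil genes, were nearly level between the subsets in naive mice, whereas Ctsc of the same list differed by 3.28 there. The Ctsg difference was 0.32 there and 3.61 at 6 weeks, an interaction of 3.30 ± 0.36 (SE; adjusted p = 1.08e-05). The Mo mean was 6.18 in naive mice and 10.19 at 6 weeks, against 5.87 and 6.57 in PMN. The Elane difference went from 0.13 to 3.23, an interaction of 3.10 ± 0.37 (SE; adjusted p = 2.42e-05). S100a9, S100a8 and Lcn2 had the same sign of interaction but were higher in PMN at both stages. S100a9 was 5.94 lower in Mo in naive mice and 2.67 lower at 6 weeks, as its Mo mean was 6.77 in naive mice and 10.42 at 6 weeks and its PMN mean 12.72 and 13.09. The interactions were 3.28 ± 0.34 (SE; adjusted p = 6.62e-06) for S100a9, 3.27 ± 0.38 for S100a8 and 3.09 ± 0.28 for Lcn2. So these genes were closer between the subsets at 6 weeks than in naive mice, yet still more than 4-fold apart with the joint normalization. Under median centring S100a9 stayed so, but S100a8 and Lcn2 did not.

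For other genes the difference toward PMN was wider at 6 weeks. Stfa3 was 0.40 lower in Mo in naive mice and 4.54 lower at 6 weeks, an interaction of -4.14 ± 0.64 (SE; adjusted p = 0.000243). Its SD was 1.52 over the 6-week Mo arrays and 0.14 over the naive Mo arrays. The PMN mean was 5.35 in naive mice and 10.71 at 6 weeks. Tmem45a2 had an interaction of -3.27 ± 0.14 and Chil5 of -2.84 ± 0.15, with PMN means of 6.01 and 5.68 in naive mice and 9.27 and 8.71 at 6 weeks. Their Mo means were below 5 at both stages. Stfa2 (-2.80) and Ceacam10 (-2.59) followed the same course. Ifi205, an interferon-inducible gene of the PYHIN family, differed from the other 5 negative values described here, since its level was lower in Mo at 6 weeks than in naive mice. Its Mo mean was 9.45 ± 0.34 (SD, n = 3) in naive mice and 7.06 ± 1.22 (SD, n = 3) at 6 weeks. The 6-week Mo arrays were 8.46, 6.55 and 6.19. Its 6-week difference of 2.26 was 1.06 with values raised to 64, where it no longer passed (adjusted p = 0.12), and 1.56 without Mo replicate 1. Tested against 1 rather than 0 by limma's treat, its interaction did not pass (adjusted p = 0.907), nor did those of Stfa2 (0.178) and Ceacam10 (0.0900).

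**Figure D5:**
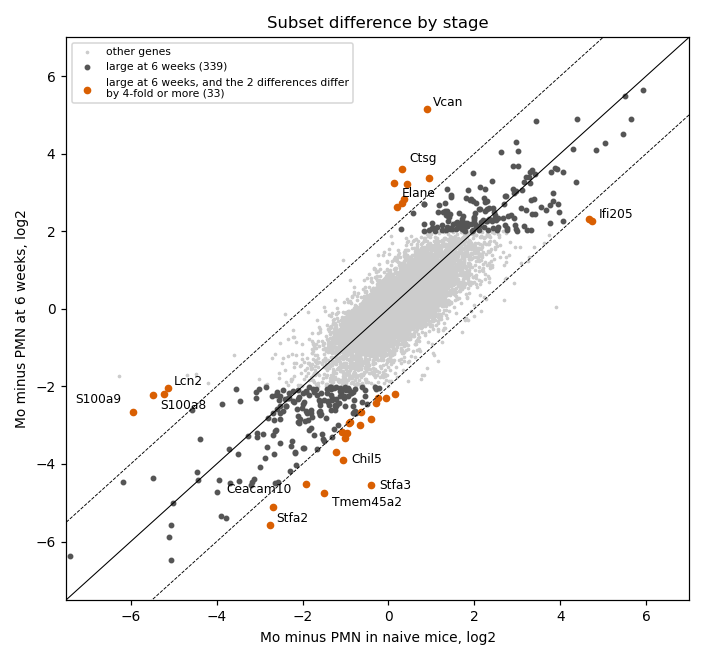
Mo minus PMN difference (log2) of each gene in naive mice (horizontal) and at 6 weeks (vertical), with the line of equality and dashed lines 4-fold away from it. Orange points are large at 6 weeks and differ by a large amount between the stages. Vcan, Ctsg and Elane stand above the line and Stfa3, Tmem45a2 and Chil5 below it.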

How the data were processed

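RNA from sorted spleen cells was hybridised to Affymetrix Mouse Gene 1.0 ST arrays, and the 17 samples were grouped by their labels. The authors deposited linear intensities, made with RMA per the submitters' processing notes. Its version and settings are not given in the sources used here. Distinct values shared by a pair of arrays had a median of 942.5 for Mo pairs, 251 for PMN pairs and 146 across the subsets. Whether RMA was run on each subset apart is not known here. The deposited values were put on the log2 scale and quantile normalized over all 17 arrays. Of 35557 features, 21789 carried 1 gene symbol, 1621 several and 12147 none. The feature with the highest mean was kept for the 999 genes with several, which left 19938 genes. No pair of 6-week arrays held more than 1018 identical values at the same features. Genes were named through the platform annotation, and 21698 features matched RefSeq (GRCm38.p6) by Entrez number. The build of the array files is not given in the sources used here.

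The linear model held 1 mean per group over all 6 groups (11 residual degrees of freedom) and was fitted by limma 3.58.1, with its lmFit, contrasts.fit and eBayes functions, under R 4.3.3. Tests were two-sided with Benjamini-Hochberg adjustment over all genes, and all adjusted p-values are from limma. The scripts were tested on simulated data. The arrays give no read depth, and their number, 3 and 2, limits the precision. The gene lists, the naming rule and the comparison were chosen with earlier results of these data known. Genes named are the 15 largest differences each way without overlap between arrays, leaving out predicted, small RNA, olfactory and antigen receptor genes; list members; the 6 largest interactions each way among genes large in both tests; and a set of suppression and sorting genes. Members of a list that were not large were chosen as examples after their values were seen, as were Mir142, Il18r1, Samd9l, Ano10, Anxa3, Mcu, Syne2, Ifit1bl2, Mppe1 and C1qc. Alternatives were other scalings, a floor at 64, dim genes left out (14608 kept), the 5 arrays alone, the mean of features, array weights, limma's treat, other size limits, a replicate block and each array left out in turn.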

Additional observations from a re-analysis of the deposited data

Results flagged for a closer look

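The subset difference at 6 weeks differed from that in naive mice, by the interaction term of the fit, for 12 genes named above. They were chosen by that term, as the 6 largest each way among genes also large at 6 weeks. Large interactions numbered 60 in all. The interaction, on the log2 scale, was 4.27 for Vcan, 3.30 for Ctsg, 3.28 for S100a9, 3.27 for S100a8, 3.10 for Elane and 3.09 for Lcn2. Toward PMN it was -4.14 for Stfa3, -3.27 for Tmem45a2, -2.84 for Chil5, -2.80 for Stfa2, -2.59 for Ceacam10 and -2.49 for Ifi205. As given above, the interactions of Stfa2, Ceacam10 and Ifi205 did not pass limma's treat.

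Each of these genes was screened for an outlying array among the 4 naive PMN arrays. For 2 of them 1 array was set off from the rest, though by little on the log2 scale. For Vcan the gap of replicate 3 to its neighbour was 0.837 of the range of the group, with levels of 5.38, 5.40, 5.56 and 5.41. For Chil5 the gap of replicate 2 was 0.928 of the range, with levels of 5.61, 5.91, 5.59 and 5.602. Both exceed Dixon's 95% critical value for 4 arrays, which chance passes in about 1 of 20 groups, and both genes were dim there.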

How the results depend on the processing

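The count of 372 large differences was 624 without the joint normalization (294 shared with the 372), which moved the median of all genes from 0.03 to 0.25. It was 2161 with 2-fold as the limit and 103 with 8-fold. Leaving out each 6-week array gave 358 to 382. The 60 large interactions were 810 at 2-fold and 11 at 8-fold, and 57 to 77 with an array left out; the fit to the 5 arrays alone has no naive group and gives no interaction. Other alternatives kept both counts within 1.5 times, and scaling to the 75th percentile moved the median of all genes to -0.28. Replicate numbers are shared between the subsets, but same-numbered arrays of a stage did not deviate together (correlations of -0.16 to -0.03 over 7 pairs). With the replicate number as a block, which leaves Mo replicate 3 of the 6-week arrays without a partner, the counts were 358 and 56. Of 105 named genes with large differences, 102 passed adjusted p below 0.05 under each of up to 15 alternatives that gave them a value, and 74 stayed large in each; Ifi205, Mrc1 and Ngp were the exceptions to the first. Alox5ap, at -0.04, was 0.79 without the joint normalization, 0.52 with median centring and 0.26 with the 75th percentile, and Spi1 was 0.25 without the joint normalization. Named genes close to the limit fell under 4-fold when 1 array was left out: C1qb, Calr, Ccr3, Fcgr1, Flt3, Gla, H2-Aa, H2-DMa, Hvcn1, Ifi205, Ifi44l, Lcn2, Ngp, Nr4a1, Olr1, Pdia4, Rplp0, S100a8 and Serpinb1a. Estimation of array weights stopped before it converged.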

Other observations

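Ptgs2, the cyclooxygenase-2 gene, differed by less than 4-fold at 6 weeks and by far more in naive mice. It lay at 5.80, 5.65 and 5.51 in Mo and at 7.41 and 7.33 in PMN, a difference of -1.72 ± 0.16 (SE). In naive mice the difference was -6.27, the Mo mean being 5.76 ± 0.11 (SD, n = 3) and the PMN mean 12.03 ± 0.30 (SD, n = 4). At 3 weeks the means were 5.93 and 11.70. The interaction was 4.55 ± 0.21 (SE), with an adjusted p of 5.58e-10 in limma. For 2 receptor genes higher in PMN the difference was also smaller at 6 weeks than in naive mice. The interaction was 2.79 for Ccr1, a chemokine receptor gene, and 2.29 for Il1r2, the decoy receptor gene for interleukin-1. In contrast, Il18r1 had an interaction of -2.02. These genes were picked out after their values were seen.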
